A study of Mus musculus with 18 samples.

Results

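The 6 genes *Fut1*, *Smpdl3b*, *Hpdl*, *Chd5*, *Hykk* and *Flrt1* were followed in mouse kidneys that lacked *Myc* or *Cxcl12* in their tubules and had been injured by ischemia. They were picked from the 45706 genes of the count files because they had changed strongly after *Myc* loss or in opposite directions after the loss of *Myc* and of *Cxcl12* in these same kidneys. Their differences between knockout and control kidneys are therefore descriptions, given without a p-value. All 6 passed the filter on low counts in both cohorts. *Flrt1* did not separate *Myc* KO from *Myc* Control kidneys, and it was the gene with the lowest log2 fold change of the 6 in the *Cxcl12* cohort.

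Whole kidneys of C57BL/6 mice were sequenced in 4 genotype groups: *Myc* KO (5 kidneys), *Myc* Control (5 kidneys), *Cxcl12* KO (5 kidneys) and *Cxcl12* Control (3 kidneys). All mice carried a floxed *Myc* or floxed *Cxcl12* gene together with Pax8rtTA, a doxycycline-dependent activator made in tubule cells. KO mice also carried TetOCre, the recombinase that this activator switches on, and control littermates lacked it. Knockout and control mice both received doxycycline, followed by a wash-out period, and the blood flow to both kidneys was stopped in all mice for 22.5 min and restored for 12 h, so no uninjured kidney belongs to the comparison. The deletion affects tubule cells only, while the RNA came from every cell of the kidney, so fewer cells of a type and less RNA per cell cannot be told apart. The labels number the kidneys within a group but do not tie them to litters, and p-values measure the spread between these kidneys.

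The 6 genes belong to unrelated pathways. *Fut1* encodes a Golgi fucosyltransferase that completes the H antigen of glycans, and *Smpdl3b* encodes a lipid-anchored phosphodiesterase of the cell surface that acts on membrane lipids and is known in the kidney from podocytes. *Hpdl* encodes a mitochondrial relative of the tyrosine-degrading enzyme HPD with a role in making the head group of coenzyme Q. *Chd5* encodes a chromatin remodeller that can take the ATPase position in the NuRD complex and is best known from neurons and testis. *Hykk* encodes hydroxylysine kinase, which acts in the breakdown of hydroxylysine from collagen. *Flrt1* encodes a leucine-rich-repeat membrane protein of the FLRT family, whose members bind latrophilins, UNC5 receptors and FGF receptors. MYC is a transcription factor that binds E-box motifs as a dimer with MAX, and CXCL12 is a chemokine that acts through the receptor CXCR4.

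In GRCm38, *Fut1* (ENSMUSG00000008461) spans chr7:45617289-45621059 on the plus strand with 3 exon blocks. *Smpdl3b* (ENSMUSG00000028885) spans chr4:132732966-132757252 on the minus strand with 8 exon blocks, and *Hpdl* (ENSMUSG00000043155) is a gene of 1 exon at chr4:116819904-116821707 on the minus strand. *Chd5* (ENSMUSG00000005045) spans chr4:152338651-152390194 on the plus strand with 43 exon blocks. *Hykk* (ENSMUSG00000035878) lies at chr9:54917283-54949924 on the plus strand with 5 exon blocks, and *Flrt1* (ENSMUSG00000047787) lies at chr19:7092001-7105729 on the minus strand with 2 exon blocks. The exons of 4 of the genes overlapped no other gene. In *Chd5*, 101 exon bases were shared with Gm13645, which had no read in any kidney, and all 5872 exon bases of *Flrt1* lay inside introns of *Macrod1*.

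The promoters of the 3 genes that were lower together in *Myc* KO kidneys are shown because MYC acts through E-boxes. The RefSeq windows (GRCm38.p6) run 5′ to 3′ from 250 bases before a RefSeq transcript start to 50 bases after it, at chr7:45617356-45617655 (plus strand) for *Fut1*, chr4:132757122-132757421 (minus strand) for *Smpdl3b* and chr4:116821459-116821758 (minus strand) for *Hpdl*. These RefSeq starts lie 317, 81 and 199 bases inside the gene bounds given above for *Fut1*, *Smpdl3b* and *Hpdl*, which come from GENCODE and reach to the outermost transcript. Capitals mark an E-box.
Fut1: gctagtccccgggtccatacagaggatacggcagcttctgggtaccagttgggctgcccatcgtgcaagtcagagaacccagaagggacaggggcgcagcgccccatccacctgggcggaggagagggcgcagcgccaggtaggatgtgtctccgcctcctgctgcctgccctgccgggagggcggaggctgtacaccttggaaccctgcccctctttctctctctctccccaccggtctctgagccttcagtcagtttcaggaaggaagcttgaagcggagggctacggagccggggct
Smpdl3b: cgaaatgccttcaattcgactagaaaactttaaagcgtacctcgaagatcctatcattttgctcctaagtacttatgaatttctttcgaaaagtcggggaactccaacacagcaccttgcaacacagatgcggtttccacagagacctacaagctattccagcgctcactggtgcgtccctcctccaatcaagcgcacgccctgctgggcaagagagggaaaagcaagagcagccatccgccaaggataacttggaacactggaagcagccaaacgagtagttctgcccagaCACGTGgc
Hpdl: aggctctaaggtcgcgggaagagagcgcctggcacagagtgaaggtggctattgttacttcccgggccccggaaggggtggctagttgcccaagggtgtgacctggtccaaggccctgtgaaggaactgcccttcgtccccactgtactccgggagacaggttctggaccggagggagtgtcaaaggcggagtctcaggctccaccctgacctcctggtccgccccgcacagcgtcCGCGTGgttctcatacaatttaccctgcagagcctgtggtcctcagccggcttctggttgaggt
The *Smpdl3b* window held the canonical E-box CACGTG, a palindrome, with its first base at position 43, counted with the RefSeq start as position 1. The *Hpdl* window held CGCGTG, the reverse complement of the non-canonical E-box CACGCG, with its first base at position -14, before the RefSeq start and inside the GENCODE bounds. The second motif was added after the sequences had been read. CACGTG occurred in 2349 of 32851 promoter windows (7.15%), and CACGCG or CGCGTG in 3045 (9.27%). The *Fut1* window, both windows of *Chd5* and that of *Hykk* held neither motif on either strand, and 5 of the 6 genes had a window. These matches describe the letters in the windows and are no measurement of binding.

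The kidneys had between 12918220 and 29749500 reads on genes. In 6 kidneys (2 *Myc* KO, 2 *Myc* Control, 2 *Cxcl12* KO and 0 *Cxcl12* Control) under 5% of reads were unmapped, and these are open symbols in the plot of levels by kidney. The targeted genes followed the labels. The *Myc* level, in counts scaled to library size (CPM), was 94.9 ± 14.5 in the controls of its cohort and 31.0 ± 3.95 in the knockouts (SD, n = 5 each), with a log2 fold change of -1.61 (SE 0.12, adjusted p = 8.8e-05 in edgeR's quasi-likelihood test). The *Cxcl12* level was 53.5 ± 7.92 CPM in the controls of its cohort (n = 3) and 32.3 ± 6.07 CPM in the knockouts (n = 5), each ± SD, a log2 fold change of -0.73 (SE 0.15) that did not pass the threshold of 0.05 (adjusted p = 0.094, edgeR), although each KO kidney lay below each control kidney. All levels below are CPM scaled by the TMM method over all 18 kidneys, and fold changes are from the fit of each cohort alone.

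*Fut1*, *Smpdl3b* and *Hpdl* were lower in every *Myc* KO kidney than in any *Myc* Control kidney. Over all 14936 genes tested in this cohort, 585 (3.92%) showed this separation downwards, and 193 (1.29%) passed the adjusted threshold as lower, against 646 called lower by DESeq2. Leaving out 1 kidney gave 21 (without *Myc* KO kidney 2) to 877 (without *Myc* Control kidney 3) calls in both directions, against 246. The choice of the genes used this comparison, so no test of them follows from these shares.

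*Fut1* had 0.949, 0.957, 0.823, 0.807 and 0.964 CPM in *Myc* KO kidneys 1 to 5 and 4.32, 3.80, 1.46, 5.67 and 1.13 CPM in *Myc* Control kidneys 1 to 5. The knockout kidneys sat within a narrow band under the controls, while the controls fell into kidneys well above the band and kidneys 3 and 5 close to it. The group means were 0.900 ± 0.0781 and 3.27 ± 1.94 CPM (SD, n = 5 each), and the log2 fold change of -1.84 (SE 0.41), a 3.59-fold lower level, was the lowest of all 14936 genes. These levels rest on 12 to 25 reads per knockout kidney and 19 to 112 reads per control kidney. The SD of the knockout band was 8.68% of its mean, less than counting noise at 12 to 25 reads. Its narrowness is therefore no measure of how alike the knockout kidneys were. Without *Myc* Control kidney 4 the log2 fold change was -1.56, and without *Myc* Control kidney 5 it was -2.06.

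*Smpdl3b* had 6.09, 4.96, 4.25, 3.85 and 3.01 CPM in *Myc* KO kidneys 1 to 5 and 14.8, 13.0, 8.80, 13.1 and 6.53 CPM in *Myc* Control kidneys 1 to 5. The highest knockout kidney lay just under the lowest control, kidney 5. The means of 4.43 ± 1.16 and 11.2 ± 3.44 CPM (SD, n = 5 each) gave a log2 fold change of -1.36 (SE 0.24), which ranked 7 from the lowest.

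*Hpdl* had 2.53, 2.20, 2.01, 1.49 and 1.39 CPM in *Myc* KO kidneys 1 to 5 and 4.28, 5.05, 2.88, 7.08 and 3.68 CPM in *Myc* Control kidneys 1 to 5. Control kidney 3 was again among the low controls and control kidney 4 was the highest, as for *Fut1*. The means were 1.92 ± 0.481 and 4.59 ± 1.60 CPM (SD, n = 5 each), with a log2 fold change of -1.26 (SE 0.26) that ranked 10 from the lowest.

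*Chd5* and *Hykk* were higher in every *Myc* KO kidney than in any *Myc* Control kidney, a separation seen in 306 genes (2.05%), while 53 genes (0.355%) passed the adjusted threshold as higher (485 in DESeq2). *Chd5* had 3.16, 5.01, 4.07, 5.59 and 3.63 CPM in *Myc* KO kidneys 1 to 5 and 2.24, 1.90, 2.64, 1.29 and 2.02 CPM in *Myc* Control kidneys 1 to 5. The log2 fold change of this low-level chromatin gene was 1.07 (SE 0.21), a 2.10-fold higher level and rank 32 from the highest. *Hykk* had 55.0, 67.3, 74.4, 71.8 and 50.1 CPM in *Myc* KO kidneys and 36.1, 36.2, 48.0, 40.7 and 38.0 CPM in *Myc* Control kidneys, again in order of kidney number. The gap between the groups was narrow, from control kidney 3 to knockout kidney 5, and the log2 fold change was 0.68 (SE 0.12), a 1.60-fold higher level.

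*Flrt1* had 17.2, 17.9, 16.2, 24.4 and 12.3 CPM in *Myc* KO kidneys 1 to 5 and 18.2, 14.0, 13.4, 14.8 and 14.3 CPM in *Myc* Control kidneys 1 to 5. The groups overlapped, with knockout kidney 5 below every control and knockout kidney 4 above every control. The log2 fold change was 0.23 (SE 0.16), and it was 0.09 without *Myc* KO kidney 4.

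**Figure D1:**
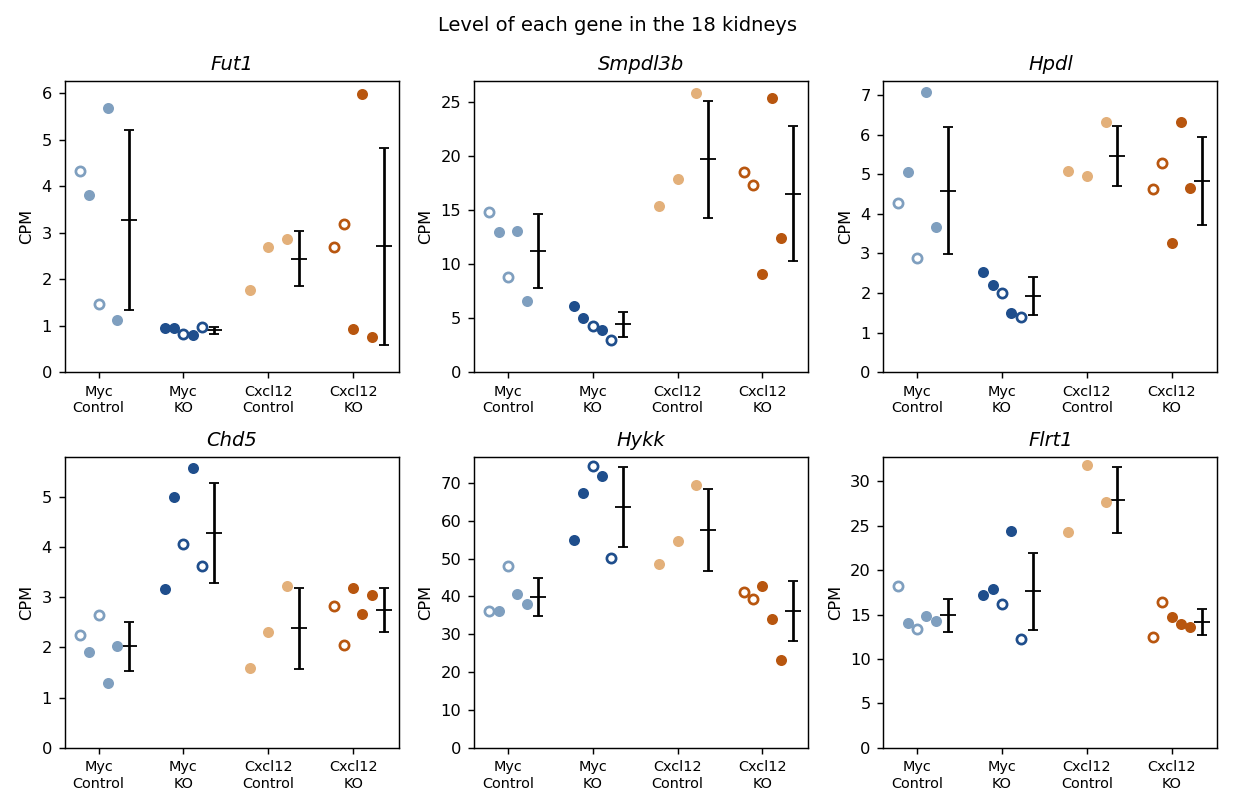
Level of each gene in CPM (vertical axes, starting at 0) in the 18 kidneys, by genotype group and in order of kidney number. Open symbols are kidneys with under 5% unmapped reads, and bars show the mean ± SD. *Fut1*, *Smpdl3b* and *Hpdl* are lowest in *Myc* KO, *Chd5* is highest there, and *Flrt1* is highest on average in *Cxcl12* Control kidneys, at 27.9 CPM.

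In the *Cxcl12* cohort, *Hykk* and *Flrt1* were lower in every knockout kidney than in any control, and the other 4 genes overlapped between the groups. With 5 kidneys against 3, 715 of 15154 genes (4.72%) had every knockout kidney below every control and 752 (4.96%) had every knockout kidney above. No gene passed the adjusted threshold in edgeR's quasi-likelihood test (0 of 15154, 0%; smallest adjusted p = 0.062), 1976 genes had an unadjusted p under 0.05, and DESeq2 called 353.

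*Flrt1* had 12.5, 16.4, 14.7, 13.9 and 13.6 CPM in *Cxcl12* KO kidneys 1 to 5 and 24.3, 31.8 and 27.7 CPM in *Cxcl12* Control kidneys 1 to 3. The means of 14.2 ± 1.46 CPM (SD, n = 5) and 27.9 ± 3.74 CPM (SD, n = 3) gave a log2 fold change of -0.98 (SE 0.12), a 1.97-fold lower level and rank 159 from the lowest. The *Cxcl12* KO level was close to that of *Myc* Control kidneys (14.9 ± 1.89 CPM, SD, n = 5), and the *Cxcl12* Control kidneys stood above all kidneys of the series except *Myc* KO kidney 4, at 24.4 CPM, which lay between their lowest and next values.

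*Hykk* had 41.3, 39.4, 42.8, 34.0 and 23.2 CPM in *Cxcl12* KO kidneys 1 to 5 and 48.6, 54.6 and 69.5 CPM in *Cxcl12* Control kidneys 1 to 3. The log2 fold change of *Hykk* was -0.67 (SE 0.18), a 1.60-fold lower level, and it ranged from -0.78 to -0.52 when 1 kidney was left out. *Hykk* was the gene whose knockout kidneys lay wholly above the controls in one cohort and wholly below them in the other. The order of the *Hykk* means was *Cxcl12* KO (36.1 ± 7.96 CPM, n = 5), *Myc* Control (39.8 ± 4.96 CPM, n = 5), *Cxcl12* Control (57.6 ± 10.8 CPM, n = 3) and *Myc* KO (63.7 ± 10.6 CPM, n = 5), each ± SD. Neighbours in this order overlapped, apart from *Myc* Control and *Cxcl12* Control.

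The control groups of the cohorts also stood apart for both genes and for *Smpdl3b*. *Myc* Control minus *Cxcl12* Control was -0.90 (SE 0.16) for *Flrt1* and -0.53 (SE 0.17) for *Hykk* on the log2 scale, and -0.81 (SE 0.29) for *Smpdl3b*. In these 3 genes each *Myc* Control kidney lay below each *Cxcl12* Control kidney, as in 935 of 15903 genes (5.88%). The groups overlapped for the other genes, with differences of -0.26 (SE 0.25) for *Hpdl*, -0.22 (SE 0.26) for *Chd5* and 0.41 (SE 0.53) for *Fut1*. The floxed gene and anything else that set the cohorts apart cannot be told apart in this difference. Summed levels of some cell type markers also differed between the control groups and are given below.

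The 3 genes that were low after *Myc* loss overlapped between *Cxcl12* KO and *Cxcl12* Control kidneys, as *Chd5* did. *Fut1* had 2.68, 3.18, 0.934, 5.99 and 0.744 CPM in *Cxcl12* KO kidneys 1 to 5 and 1.77, 2.69 and 2.87 CPM in *Cxcl12* Control kidneys 1 to 3. The knockout kidneys lay on both sides of the controls, with kidneys 3 and 5 as low as *Myc* KO kidneys, and the log2 fold change of 0.17 (SE 0.55) became -0.31 without *Cxcl12* KO kidney 4. *Smpdl3b* had 18.5, 17.3, 9.10, 25.4 and 12.4 CPM in *Cxcl12* KO and 15.4, 17.9 and 25.8 CPM in *Cxcl12* Control kidneys, a log2 fold change of -0.24 (SE 0.28). For *Hpdl*, with 4.62, 5.30, 3.27, 6.33 and 4.65 CPM in *Cxcl12* KO and 5.09, 4.95 and 6.34 CPM in *Cxcl12* Control kidneys, it was -0.17 (SE 0.21). *Chd5* had 2.82, 2.05, 3.19, 2.66 and 3.04 CPM in *Cxcl12* KO and 1.60, 2.31 and 3.23 CPM in *Cxcl12* Control kidneys. The *Chd5* log2 fold change of 0.20 (SE 0.26) was -0.02 without *Cxcl12* Control kidney 1.

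**Figure D2:**
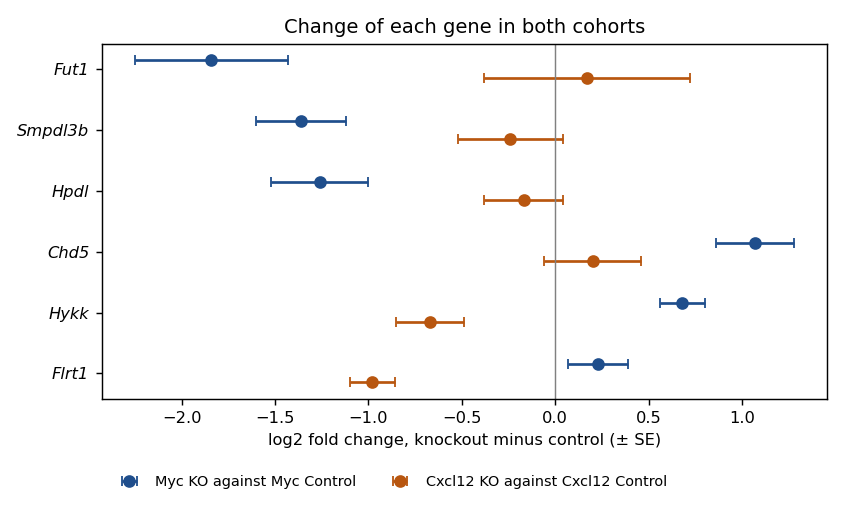
Log2 fold change of each gene (horizontal axis, knockout minus control) in the *Myc* cohort (blue) and the *Cxcl12* cohort (orange), with standard errors as bars. *Hykk* lies at 0.68 and -0.67, on opposite sides of 0, and *Fut1* is lowest in the *Myc* cohort, at -1.84.

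The difference between the knockout effects (*Myc* minus *Cxcl12*, log2 scale, all 18 kidneys in 1 fit) was -2.02 (SE 0.74) for *Fut1*, -1.12 (SE 0.40) for *Smpdl3b* and -1.09 (SE 0.35) for *Hpdl*. It was 0.87 (SE 0.33) for *Chd5*, 1.35 (SE 0.23) for *Hykk* and 1.21 (SE 0.21) for *Flrt1*. Of 15903 genes in this fit, 11 (0.0692%) passed the adjusted threshold. The cohorts share no kidneys. The choice of the genes used these differences, so they carry no p-value.

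The levels of the 6 genes differed widely when scaled by exon length. In *Myc* Control kidneys, *Smpdl3b* had 5.61 ± 1.72 and *Hykk* 4.45 ± 0.555 CPM per kilobase of exon (SD, n = 5), ahead of *Hpdl* (2.55 ± 0.889) and *Flrt1* (2.54 ± 0.322). *Fut1* (1.17 ± 0.695) and *Chd5* (0.210 ± 0.0515) were the lowest. In *Myc* KO kidneys *Hykk* came first, with 7.13 ± 1.19 CPM per kilobase, and *Fut1*, at 0.323 ± 0.0280, came below *Chd5*, at 0.448 ± 0.104 (SD, n = 5).

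*Fut1*, *Smpdl3b* and *Hpdl* also varied together among kidneys of the same genotype. Each gene's log2 CPM was centred on its group mean, and kidneys were shuffled within their groups 100000 times to test the correlation of each of the 15 pairs of genes. This test used the same 18 kidneys as the choice of the genes and was added after the values had been seen. The adjustment over the 15 pairs does not cover that. Kidneys that vary most also moved the fold changes behind the choice: for *Fut1* it was -1.56 without *Myc* Control kidney 4 and -2.06 without kidney 5. The shuffling asks only whether 2 genes vary independently, not how unusual a pair is among all genes. The p-values are therefore descriptions and give the choice no independent support. *Fut1* and *Smpdl3b* had a Pearson r of 0.83 over the 18 kidneys (two-sided permutation p = 0.00055, adjusted over the 15 pairs 0.0044) and a Spearman rho of 0.78 (permutation p = 0.001, adjusted 0.0079). *Smpdl3b* and *Hpdl* had an r of 0.79 (permutation p = 0.00059, adjusted 0.0044) and a rho of 0.80 (permutation p = 0.00054, adjusted 0.0079). *Fut1* and *Hpdl* had an r of 0.68 (permutation p = 0.0049, adjusted 0.024), but their rho of 0.60 did not pass after adjustment (permutation p = 0.016, adjusted 0.08). None of the other 12 pairs passed, with the closest at an r of -0.48 for *Hpdl* and *Chd5* (permutation p = 0.062, adjusted 0.23).

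In 13 of the 18 kidneys the 3 genes lay on the same side of their group means, and in 5 the sides were mixed. *Cxcl12* KO kidney 4 and *Myc* Control kidney 4 lay above their group means, by 1.48 and 1.01 log2 units for *Fut1*, 0.70 and 0.28 for *Smpdl3b* and 0.41 and 0.68 for *Hpdl*. *Cxcl12* KO kidney 3, *Myc* Control kidney 3 and *Myc* Control kidney 5 lay below them, with deviations of -1.07, -0.87 and -1.22 for *Fut1*, -0.77, -0.29 and -0.71 for *Smpdl3b* and -0.52, -0.59 and -0.25 for *Hpdl*. *Cxcl12* KO kidney 5 was the lowest for *Fut1*, at -1.36, with -0.33 for *Smpdl3b* and -0.02 for *Hpdl*. *Myc* KO kidney 5 had 0.09 for *Fut1* but -0.50 and -0.41 for the others. For each pair, the 2 kidneys farthest from the median deviation of its first-named gene were also left out. The 3 correlations were then 0.81, 0.75 and 0.73, in the order given above. Centred within group and mapping class, they were 0.86, 0.90 and 0.74. They were 0.89, 0.90 and 0.76 in the 12 kidneys with at least 5% unmapped reads and 0.72, 0.92 and 0.65 in the other 6.

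Covariation of this size was seen with a small share of the 13745 other genes. A centred r of at least 0.83 with *Fut1* was reached by 0.204% of them, an r of at least 0.79 with *Smpdl3b* by 0.633% and one of at least 0.68 with *Hpdl* by 4.87%. Counted from the other gene of each pair, the shares were 0.247% with *Smpdl3b*, 1.46% with *Hpdl* and 2.10% with *Fut1*. The centred r with *Myc* itself was lower, at 0.36 for *Fut1*, 0.35 for *Smpdl3b* and 0.24 for *Hpdl*, values that 18%, 20.0% and 33.9% of genes reached with the respective gene. The centred r with the log2 number of reads on genes was 0.15, 0.02 and -0.31. The values of the genes come from the same libraries, and what sets the kidneys of a group apart was not tested.

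**Figure D3:**
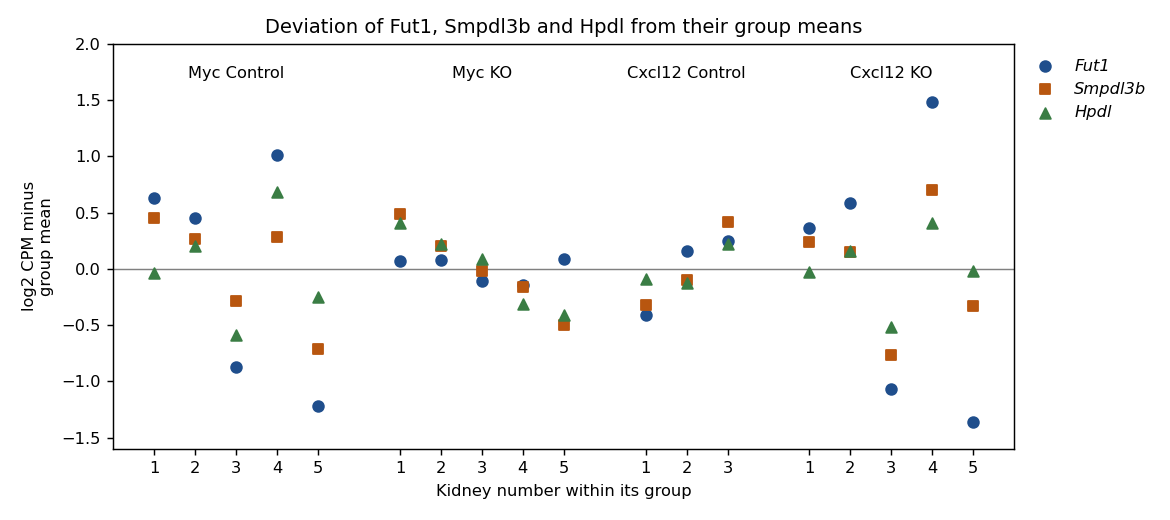
Deviation of *Fut1* (circles), *Smpdl3b* (squares) and *Hpdl* (triangles) from their group means (log2 CPM, vertical axis) in each kidney, by group and kidney number. The 3 genes lie on the same side of 0 in 13 of the 18 kidneys, and *Fut1* spans the widest range, from -1.36 to 1.48.

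Genes outside the list with the most similar levels over all 18 kidneys were chosen by the highest Pearson r of log2 CPM among 13745 genes, and this r is a description that includes the differences between groups. For *Fut1* they were 4930430F08Rik (r = 0.91), *Cdk6* (0.89), which encodes a cell cycle kinase, and *Mettl8* (0.88), which encodes an RNA methyltransferase. For *Smpdl3b* they were *Mfsd13a* (0.96), *Nup210* (0.95), which encodes a nuclear pore protein, and *Frrs1* (0.94). For *Hpdl* they were *Chchd4* (0.97), which encodes an import factor of the mitochondrial intermembrane space, *Mtfr1l* (0.96) and *Cfap298* (0.96). For *Chd5* they were *Sbno2* (0.89), *Irs2* (0.88), an adaptor of the insulin receptor, and *Gm26764* (0.87). For *Hykk* they were *Hps5* (0.87), *D630024D03Rik* (0.84) and *Cmah* (0.84), which encodes a sialic acid hydroxylase. For *Flrt1* they were *Sfxn2*, *Pdzd3* and *Fras1* (0.87 each), the last of which encodes an extracellular matrix protein of the embryonic kidney. Centred on group means, these correlations lay between 0.83 and 0.90 for the genes named with *Fut1*, *Smpdl3b* and *Hpdl* and between 0.61 and 0.68 for those named with *Hykk*. The genes named head lists of unequal length. An r over 0.8 was reached by 699 genes for *Hpdl*, 482 for *Smpdl3b* and 66 for *Fut1*. It was reached by 44 for *Chd5*, 22 for *Flrt1* and 8 for *Hykk*.

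Among the chromosomal neighbours tested in the *Myc* cohort, *Fgf21*, beside *Fut1*, had the log2 fold change farthest from 0, and none of them passed the test there or in the *Cxcl12* cohort. *Fgf21* encodes a secreted metabolic hormone and lies 1799 bases from *Fut1* on the opposite strand (chr7:45613886-45615490). It had 1.19, 2.65, 4.07, 1.43 and 2.43 CPM in *Myc* KO kidneys 1 to 5 and 5.40, 5.83, 2.50, 17.2 and 1.90 CPM in *Myc* Control kidneys 1 to 5. The groups overlapped, each knockout kidney lay below the control mean, and control kidneys 3 and 5 were low as for *Fut1*. The *Fgf21* log2 fold change was -1.43 (SE 0.54, adjusted p = 0.16 in edgeR), which did not pass the threshold, although it ranked 5 from the lowest of all genes. In the *Cxcl12* cohort *Fgf21* had 3.08, 2.92, 1.79, 10.7 and 0.682 CPM in KO and 0.774, 2.85 and 4.66 CPM in control kidneys, a log2 fold change of 0.48 (SE 0.73, edgeR adjusted p = 0.81). Its centred r with *Fut1* was 0.85 over the 18 kidneys, a value reached by 0.131% of genes. It was looked up as a neighbour, and r is given without a test.

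**Figure D4:**
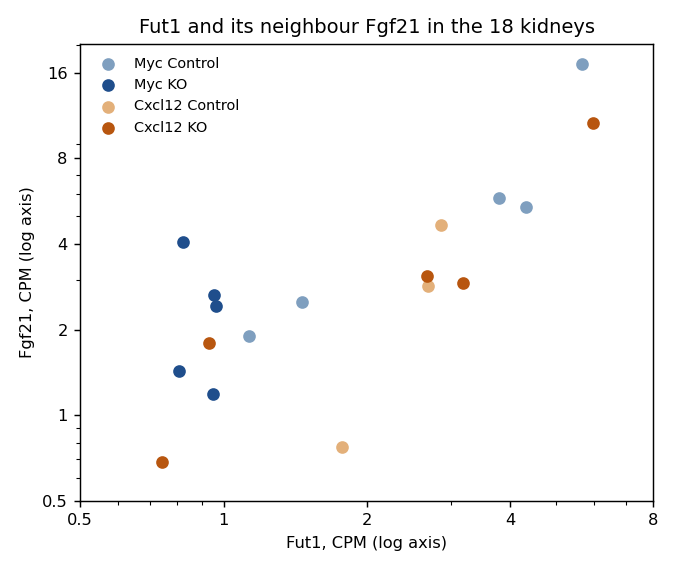
*Fut1* (horizontal) and *Fgf21* (vertical) levels in CPM on log axes, 1 point per kidney, coloured by group. *Myc* Control kidney 4 and *Cxcl12* KO kidney 4 are the highest for both genes, at 5.67 and 5.99 CPM of *Fut1*. The *Myc* KO kidneys share a narrow range of *Fut1*, which rests on 12 to 25 reads each.

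On the other side of *Fut1*, 752 bases away, *Izumo1* was too low to be tested in the *Myc* cohort (0.570 ± 0.116 against 0.603 ± 0.226 CPM, SD, n = 5 each). *Xkr8* lies 420 bases from *Smpdl3b* and *Mutyh*, a DNA repair gene, 464 bases from *Hpdl*. In the *Myc* cohort their log2 fold changes were -0.27 (SE 0.17, edgeR adjusted p = 0.36) and -0.02 (SE 0.22, edgeR adjusted p = 0.96). The farther neighbours *Rpa2* and *Zswim5* had -0.17 (SE 0.16) and -0.08 (SE 0.16), and *Zswim5* had a centred r of 0.59 with *Hpdl*. Next to *Chd5*, *Rpl22*, a ribosomal protein gene, had a log2 fold change of -0.31 (SE 0.10, edgeR adjusted p = 0.12) and *Kcnab2*, a potassium channel subunit gene, 0.38 (SE 0.22, edgeR adjusted p = 0.34). *Ireb2*, the iron regulatory gene 4753 bases from *Hykk*, had 0.04 (SE 0.11) in the *Myc* cohort and 0.15 (SE 0.11) in the *Cxcl12* cohort, and neither passed.

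*Flrt1* lies wholly within *Macrod1* (chr19:7056810-7198057), on the opposite strand. The library kept no strand: the columns for each strand held between 48.9% and 51.1% of the reads of these genes. Reads from *Macrod1* introns that cover *Flrt1* exons could therefore not be told apart from *Flrt1* reads. Between *Cxcl12* Control (24.2 ± 3.74 CPM, n = 3) and *Cxcl12* KO kidneys (21.0 ± 4.37 CPM, n = 5, each ± SD) *Macrod1* itself differed less, with a log2 fold change of -0.22 (SE 0.17, edgeR adjusted p = 0.61) against -0.98 for *Flrt1*. In the *Myc* cohort *Macrod1* had -0.29 (SE 0.17, edgeR adjusted p = 0.34), opposite in sign to *Flrt1*, and its centred r with *Flrt1* was 0.25.

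**Figure D5:**
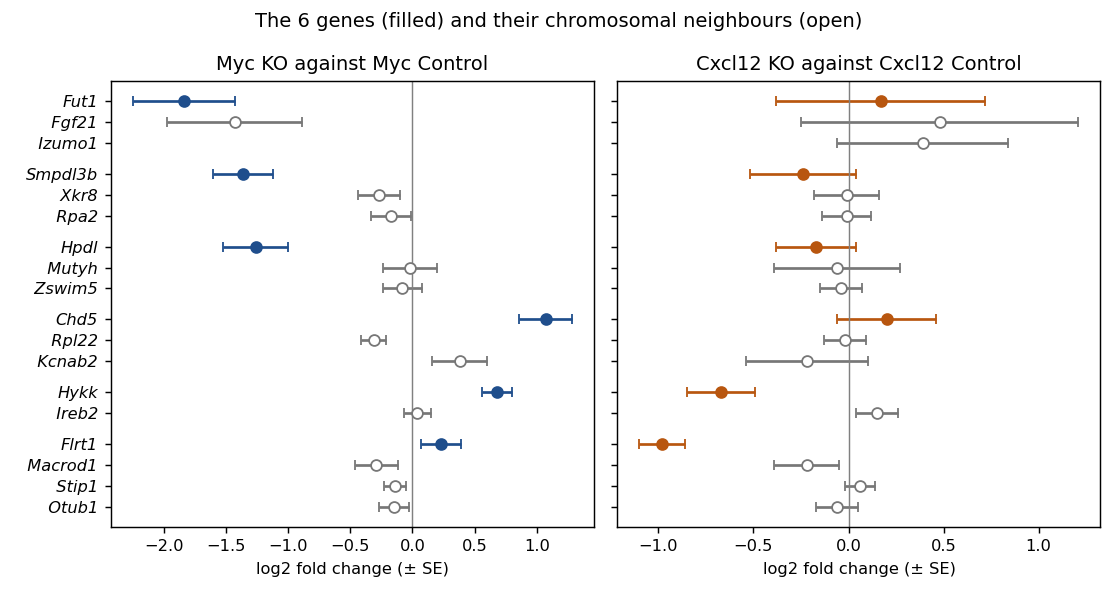
Log2 fold change with SE of the 6 genes (filled) and their nearest neighbours or host gene (open, grey), in the *Myc* cohort (left) and the *Cxcl12* cohort (right), with a separate horizontal scale in each panel. *Fgf21*, at -1.43 in the *Myc* cohort, is the neighbour farthest from 0.

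Genes of the pathways around the 6 genes were counted beside all genes tested. In 6 lists of 121 related genes, 112 were tested in the *Myc* cohort. In edgeR's test 1 passed as lower and 0 as higher, 31 had an unadjusted p under 0.05 (13 of them lower) and DESeq2 called 11. These are 0.893%, 27.7% and 9.82% of the related genes, against 1.65%, 21.9% and 7.57% of all genes tested. In the *Cxcl12* cohort 0 of 113 passed (15% with an unadjusted p under 0.05 against 13.0% of all genes, and 6 called by DESeq2, 5.31% against 2.33%), and for the difference between the cohorts 0 of 114 passed (19.3% unadjusted against 11.4% of all genes, 1 called by DESeq2). The gene that fell in the *Myc* cohort was *Colgalt1*, which encodes a collagen galactosyltransferase that glycosylates hydroxylysine. Its control level of 80.4 ± 8.19 CPM compared with 63.1 ± 2.08 CPM in the knockouts (SD, n = 5 each), a log2 fold change of -0.35 (SE 0.08, edgeR adjusted p = 0.043). When 1 kidney was left out, 0 genes passed in 8 of 10 fits, and up to 6 did without *Myc* Control kidney 3.

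Among the 9 close relatives of the 6 genes, the smallest adjusted p in edgeR's test was 0.20, for *Flrt3* in the *Myc* cohort. *Fut2*, the other fucosyltransferase of the H antigen, had 7.47 ± 3.97 CPM in *Myc* KO and 7.54 ± 4.33 CPM in *Myc* Control kidneys (log2 fold change -0.00, SE 0.40). *Smpdl3a*, the closest relative of *Smpdl3b*, and *Smpd1*, the lysosomal acid sphingomyelinase, had -0.11 (SE 0.15) and -0.14 (SE 0.09) in the *Myc* cohort and -0.01 (SE 0.11) and -0.11 (SE 0.09) in the *Cxcl12* cohort. *Hpd* had 0.61 (SE 0.56, edgeR adjusted p = 0.55) in the *Myc* cohort, with KO kidneys at 17.6 ± 12.7 CPM and controls at 11.3 ± 6.66 CPM (SD, n = 5 each). *Chd3* and *Chd4*, the widely used NuRD ATPases, had 0.22 (SE 0.10) and 0.19 (SE 0.09) in the *Myc* cohort, and neither passed (edgeR adjusted p = 0.23 for each). Their levels were far above that of *Chd5*, with 316 ± 44.4 and 359 ± 16.1 CPM in *Myc* KO kidneys (SD, n = 5), not scaled by length. *Phykpl*, the enzyme that follows HYKK in hydroxylysine breakdown, had -0.09 (SE 0.11) and -0.08 (SE 0.11) in the *Myc* and *Cxcl12* cohorts. *Flrt2* and *Flrt3* had 0.23 (SE 0.16) and 0.43 (SE 0.18) in the *Myc* cohort and 0.01 (SE 0.18) and -0.03 (SE 0.19) in the *Cxcl12* cohort, where *Flrt1* had -0.98.

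By list, the 16 fucosylation genes tested in the *Myc* cohort had 13 negative log2 fold changes and a median of -0.102, and the 21 tyrosine and coenzyme Q genes had 15 negative and a median of -0.116. The median over all genes in this cohort was -0.000832. Against the sign of most of its list, *Sec1*, a fucosyltransferase gene named after its values were seen, had 0.68 (SE 0.24, edgeR adjusted p = 0.14) in the *Myc* cohort and 0.62 (SE 0.29, edgeR adjusted p = 0.40) in the *Cxcl12* cohort. In each, 5 of 5 knockout kidneys lay above the control mean, as for other related genes, among them *Sgms2* and *Chd7*. The share of all genes that did so was not counted. The 20 CHD and NuRD genes had a median of 0.0759, the 14 lysine and hydroxylysine genes -0.0853 and the 26 sphingolipid genes -0.00901. The FLRT list (*Flrt2*, *Flrt3*, latrophilins, teneurins, netrins, UNC5 and FGF receptors) had a median of 0.233 in the *Myc* cohort, with 2 of 15 negative, and of -0.180 in the *Cxcl12* cohort, with 12 of 16 negative. None of these genes passed in edgeR's test in either cohort (0 of 15 and 0 of 16, with 4 and 1 at an unadjusted p under 0.05 and 2 and 0 called by DESeq2).

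Of 42 marker genes of kidney cell types tested, 0 passed edgeR's test in either cohort, with 11 (*Myc* cohort) and 15 (*Cxcl12* cohort) at an unadjusted p under 0.05 and 4 and 3 called by DESeq2. Of all genes tested in these cohorts, 21.9% and 13.0% had an unadjusted p under 0.05 in edgeR, and DESeq2 called 7.57% and 2.33%. The summed levels of the markers differed between groups in some lists. In the *Cxcl12* cohort, where *Hykk* and *Flrt1* were lower, the summed level of 6 proximal tubule markers was 3574 to 4122 CPM in KO and 4335 to 5039 CPM in control kidneys. The sum of 4 injured tubule markers was 4525 to 5918 CPM in KO and 2628 to 3799 CPM in control kidneys, and that of 4 neutrophil markers was 22.6 to 103 and 14.8 to 20.9 CPM. In these lists the groups did not overlap, and in the other lists of markers they did. With 5 kidneys against 3, 4.72% of single genes had every knockout kidney below every control, and 4.96% had every one above. In the *Myc* cohort, 5 podocyte markers summed to 723 to 822 CPM in KO and 428 to 745 CPM in control kidneys, 5 endothelial markers to 632 to 861 and 456 to 738 CPM, and 4 neutrophil markers to 108 to 212 and 35.5 to 182 CPM, with overlap in each. Between the control groups, the proximal tubule sum was 3388 to 4157 CPM in *Myc* Control and 4335 to 5039 CPM in *Cxcl12* Control kidneys. In the same order, injured tubule markers summed to 4574 to 6402 and 2628 to 3799 CPM, and neutrophil markers to 35.5 to 182 and 14.8 to 20.9 CPM. For 6 leukocyte markers the sums were 78.1 to 119 and 60.9 to 70.3 CPM. These ranges of the control groups did not overlap, and those of the other lists did. No marker was at 0 in any group. The part of these cell types in the results for the 6 genes was not tested.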

How the data were processed

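Whole-kidney RNA of 18 mice was sequenced with a library that keeps no strand. Per the submitters' processing notes, the authors used Trimmomatic 0.32, STAR 2.4.0 and GRCm38, and they deposited unnormalized counts of reads by gene, 1 table a kidney, which were analysed unchanged. Each file had 3 count columns, of which the one that ignores strand was taken. Lines that name no gene held 29.4% to 32.6% of reads and were left out. Names, exon lengths and neighbours were taken from GENCODE vM21 on GRCm38, which matched 45143 of 45706 identifiers. The annotation release behind the counts is not given in the sources used here.

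Low counts were removed in each cohort (filterByExpr), and after TMM scaling knockouts were compared with controls in edgeR 4.0.16 (R 4.3.3) by its quasi-likelihood method, with Benjamini-Hochberg adjustment at 0.05. An SE is the log2 fold change divided by the square root of F. Correlations used log2 CPM with a prior count of 2. The code was tested on simulated data.

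The 6 genes and all lists were chosen with earlier results of these data known. Genes named beside them were the floxed genes, overlapping and nearest protein-coding genes, the 3 genes most similar to each in level (mean CPM of at least 1), 9 fixed relatives, and related genes that passed the test. *Tmlhe* was listed but not analysed here. The test of pairs within groups was added after the values had been seen.

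Alternatives were DESeq2 1.42.0, limma 3.58.1, other size factors, filters, count columns and sets of kidneys. Figures and permutations used Python 3.11.15, scipy 1.17.1 and matplotlib 3.10.9. Replicate pairs of a group all differed by more than sampling noise.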

Additional observations from a re-analysis of the deposited data

Results flagged for a closer look

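*Flrt1* in *Myc* Control kidney 1 was far from the other controls of its group. It had 18.2 CPM, the next kidney had 14.8 CPM, and this gap was 0.712 of the range of the 5 kidneys, just above Dixon's critical value. Chance flags about 1 in 20 groups, and 18 groups were examined. *Hykk* moved in opposite directions in the cohorts: each *Myc* KO kidney lay above and each *Cxcl12* KO kidney below its own controls. The difference of the effects was 1.35 on the log2 scale (SE 0.23). It was not tested here, because the gene was chosen for it, and the share of all genes with both separations was not counted.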

How the results depend on the processing

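For the 6 genes, 227 of 228 log2 fold changes under alternatives stayed within 1 SD of the value reported. This SD is the pooled log2 SD between kidneys of a cohort, from 0.162 (*Flrt1*) to 0.995 (*Fut1*), both in the *Cxcl12* cohort. It was larger than the SE of each fold change, so it is a wide limit. The exception was *Chd5* in the *Myc* cohort at 1.42 with only the kidneys with at least 5% unmapped reads. The cause was not tested. The sign changed for *Fut1* in the *Cxcl12* cohort in 4 of 18 alternatives, among them limma-voom (-0.10), and for *Chd5* there in 1 of 18. Depth limits *Fut1* most, with 12 to 25 reads per *Myc* KO kidney.

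Counts of genes that passed were less stable. In the *Myc* cohort, 246 became 1131 with DESeq2 (646 lower, 485 higher), 954 with a term for kidneys under 5% unmapped, 8 with only kidneys with at least 5% and 683 with all 18 kidneys in 1 fit. Leaving out 1 kidney gave 21 (without *Myc* KO 2) to 877 (without *Myc* Control 3), a shift of over 1.5 times for each kidney but *Myc* KO 1 and *Myc* Control 1. Of the related genes, 1 became 0 with no filter, limma-voom, count column 3 and only kidneys with at least 5% unmapped, 11 with DESeq2, 8 with the unmapped term, 8 with all 18 in 1 fit, and 0 to 6 with 1 kidney left out. In the *Cxcl12* cohort, 0 became 214 with no filter, 353 with DESeq2, 123 with the unmapped term, 80 with only kidneys with at least 5% unmapped, 9 with column 3, 25 with all 18 and 0 to 15 with 1 kidney left out (15 without *Cxcl12* KO 1, 9 without *Cxcl12* KO 2 and 3 without *Cxcl12* Control 3). The related genes there became 3, 6, 1 and 1 in the first 4 of these. For the difference, 11 became 324 with DESeq2, 3 with limma-voom, 133 with the unmapped term, 44 with only kidneys with at least 5%, 4 with column 3 and 7 with column 4.

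A replicate block left 18 genes past the threshold in the *Myc* cohort, 0 of the related genes there and 1 gene for the difference. Deviations of same-numbered kidneys correlated from -0.211 to 0.402 in the *Myc* cohort and from -0.0321 to 0.134 in the *Cxcl12* cohort, and 1 of 5 and 2 of 3 knockout kidneys correlated best with their own number. Not every pair was over 0.1 and the labels tie no number to a litter, so the block was not used for the values reported, and whether the numbers pair the kidneys is not known.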
